A study of Mus musculus with 5 samples.

Results

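The genes described here are 36 mouse genes of the peroxisome: 13 peroxins, which build the organelle and import its proteins, 5 genes of transporters and other membrane proteins, and 18 genes of enzymes. They were given as a list of symbols, by a rule that uses no measured value, though earlier results of these data were known when the list was made. Each of the 36 had 1 named probe set, of 19505 genes named on the array and 22206 probe sets in all. Signal was measured in 5 RNA samples of 3T3-L1, a mouse fibroblast line that turns into fat cells in culture, each on 1 Affymetrix Clariom S array. All 5 samples went through the same differentiation: 4 days of basal growth, 4 days of inducers (IBMX at 0.5 mM, dexamethasone at 1 µM, insulin at 5 µg/mL), 2 days with only the insulin kept, and 1 last day without any of these. Both groups then stood for 72 h in RPMI medium with 10% fetal bovine serum. In the 3 exposed samples, MM.1S cells (a human multiple myeloma line) shared that medium behind a membrane with 0.4 µm pores, and in the 2 control samples no myeloma cells were present. The labels call the samples replicates without naming separate cultures, so p-values and intervals reflect sample-to-sample spread that could be technical. The model is 1 cell line exposed to 1 myeloma line.

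Peroxisomes are small organelles bounded by a single membrane. They shorten very long, branched and dicarboxylic fatty acids that mitochondria handle poorly, make the ether bond of plasmalogens, and break down the hydrogen peroxide that their oxidases release. Peroxisomes multiply when preadipocytes become fat cells, and several of their genes are known targets of the PPAR family of nuclear receptors, among them the adipocyte receptor Pparg. The question here is whether transcripts of this organelle differ in mature adipocytes that share medium with myeloma cells.

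Upstream sequence was available for 29 of the 36 genes, as 33 RefSeq windows of the GRCm38.p6 build that run from 250 bases before to 50 bases after a start site. PPAR and RXR receptors bind as a pair to a direct repeat of AGGTCA with 1 base between, which was searched (AGGTCA, any single base, AGGTCA) on both strands with up to 2 mismatches. Only the windows of Cat and Acot4 held it, 2 of 33 (6.06%), against 3.86% of all 32851 windows. The half-site AGGTCA or its complement stood in 5 of 33 (15.2%) against 16.3% of all windows; a direct repeat match can hold one. CCAAT on either strand stood in 15 of 33 (45.5%) against 37.4%, and TATAAA on the gene's strand in 1 (3.03%, Acot4) against 8.32%. The windows had a median GC content of 58% and 19 CpG dinucleotides, against 52.7% and 7 over all windows. A match describes the letters and does not show that a factor binds there. The stretches below are from these 2 genes and from the 2 enzyme genes that had the widest differences between the groups. Capitals mark the direct repeat match in Cat and Acot4 and the CCAAT nearest the start site in Acot8 and Agps.
Cat, catalase, chr2:103485315-103485387, minus strand: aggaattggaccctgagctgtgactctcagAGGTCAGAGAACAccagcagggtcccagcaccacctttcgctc
Acot4, an acyl-CoA thioesterase, chr12:84038358-84038378, plus strand: ccgaagcaTGACCTTTGGCCG
Acot8, an acyl-CoA thioesterase, chr2:164804926-164804954, minus strand: caagcacatcgaCCAATcacaatctgcgt
Agps, an ether lipid enzyme, chr2:75831985-75832049, plus strand: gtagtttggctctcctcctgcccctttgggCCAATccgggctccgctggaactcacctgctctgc
The Acot4 match ends at the base before the start site and lies on the opposite strand, and the Cat match begins 204 bases before it. The Acot4 and Acot8 stretches lie inside the outermost RefSeq bounds of their genes, so they are kept short.

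None of the 36 genes passed the test between exposed and control arrays. With limma and Benjamini-Hochberg adjustment over all 22206 probe sets, 0 of 36 were called at an adjusted p under 0.05, as were 0% of all probe sets, and the smallest adjusted p among the 36 was 0.93. At an unadjusted p under 0.05 there were also 0 of 36, beside 3.49% of all probe sets (1.82% higher, 1.68% lower). An ordinary fit without moderation gave 1 of 36, beside 2.82% of all probe sets. In mean, 17 genes were higher and 19 lower on exposed arrays (47.2% higher; over all probe sets 49.9% were higher and 50.1% lower). The median difference, exposed minus control on the log2 scale, was -0.0069 for the 36 and -0.0004 over all probe sets. Differences ran from -0.38 to 0.41. For all 36 the 95% interval of the difference lay inside a 2-fold change in either direction, as it did for 92.9% of all probe sets. Those intervals are per gene, without correction for the number of genes, and their half-widths ran from 0.29 to 0.63. Exposed and control arrays did not overlap for 3 genes, Abcd4, Acot8 and Agps, or 8.33% of the 36 against 17.3% of all probe sets. Abcd4 and Acot8 lay above the controls, as did 8.50% of all probe sets, and Agps below, as did 8.84%.

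**Figure D1:**
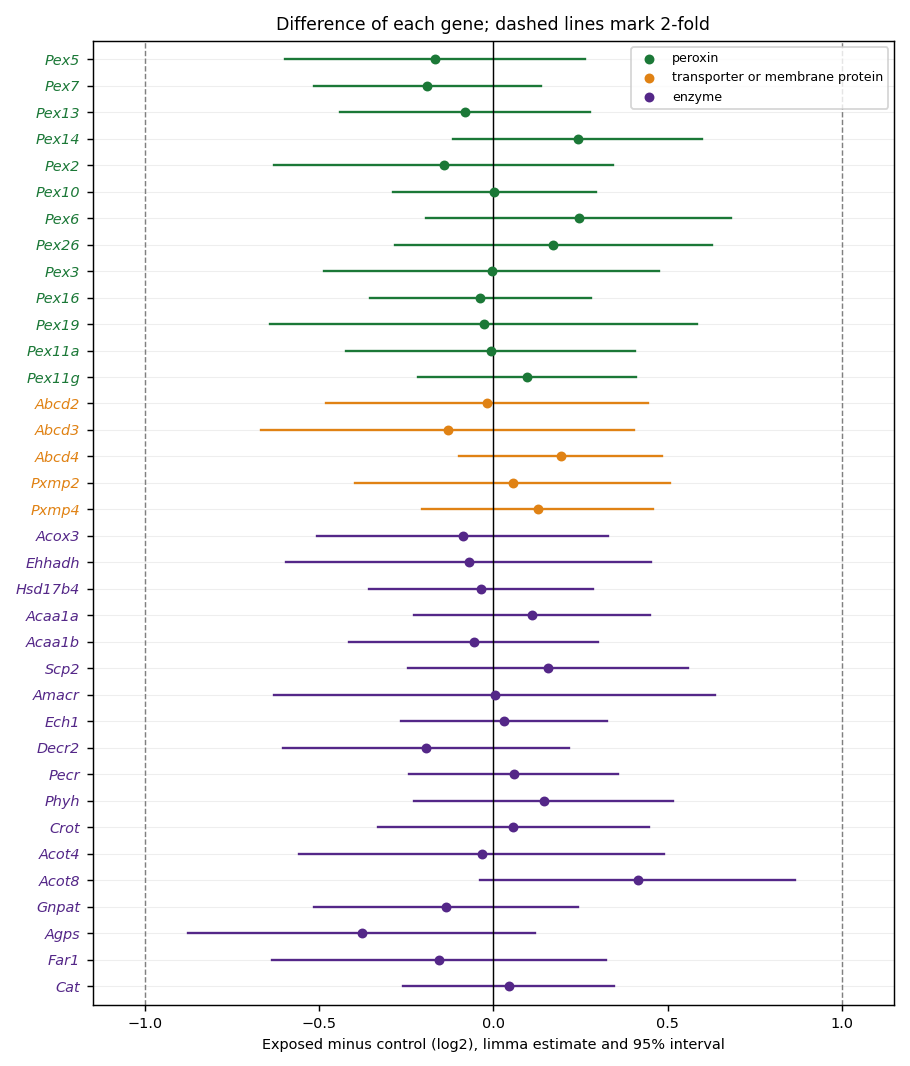
Difference in signal (log2, exposed minus control, horizontal axis) of each gene, as the limma estimate (point) with its 95% interval (line), coloured by class; dashed lines mark a 2-fold change. Every interval spans 0 and lies inside the dashed lines, and the widest estimates are those of Acot8 (0.41) and Agps (-0.38).

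Markers of the labelled cell type and of others were read on the same arrays. Of 10 adipocyte markers 9 were measured, with mean signals from 5.81 (Slc2a4) to 12.4 (Fabp4), 2 higher and 7 lower in mean on exposed arrays, and 0 passed the test; the largest differences were Plin1 at -0.25 and Cebpa at -0.24. Of 10 preadipocyte and fibroblast markers 8 were measured, with mean signals from 3.50 (Cd34) to 10.99 (Fn1), 7 of them lower in mean on exposed arrays (median difference -0.17), and 0 passed, with Dlk1 at -0.28 and Postn at -0.27. Their part in the results below was not tested. Mean signals ran from 2.63 to 4.22 for 5 macrophage markers (1 higher, 4 lower, 0 passed; Adgre1 at -0.20, Csf1r at -0.11) and from 2.66 to 7.49 for 5 B and plasma cell markers (3 higher, 2 lower, 0 passed; Cd79b and Mzb1 at -0.37 each). The 3 higher ones, given after their values were seen, were Tnfrsf17 at 0.25, Cd79a at 0.23 and Sdc1 at 0.05. The highest signal of the B and plasma cell markers was that of Sdc1, which is not confined to plasma cells. Every exposed array lay above both controls for Tnfrsf17 (mean signal 3.23), as for 8.50% of all probe sets. Every exposed array lay below both controls for 1 of 9 adipocyte markers (11.1%, Cebpa), against 8.84% of all probe sets. The same held for 2 of 8 preadipocyte and fibroblast markers (25%), among them Dlk1. For 6 hepatocyte markers, a type rich in peroxisomes, mean signals ran from 2.52 to 4.32 (2 higher, 4 lower, 0 passed). Alb differed by -0.67, with control array 1 at 4.62 and the other arrays from 3.25 to 3.64, and Serpina1a by -0.17. The 2 higher hepatocyte markers, also given after their values were seen, were Apoa1 at 0.15 and Cyp2e1 at 0.12. Cd79b read 3.47 on control array 2 and 2.28 to 2.51 on the others. Plin1 read 9.08 on exposed array 3 and 9.77 to 9.90 on the others. The deposited table carries no detection calls, so no signal can be marked as background, and signals of different probe sets are not compared as amounts of RNA. In a bulk culture, fewer cells of a type and less RNA per cell cannot be told apart.

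Among the peroxins that import matrix proteins, the 2 cargo receptors had a lower mean on exposed arrays, and their groups overlapped. The absolute difference was 0.81 times the pooled within-group SD for Pex5 and 1.8 times for Pex7. Pex5, the receptor for the common C-terminal targeting signal, read 5.98, 6.44 and 6.03 on exposed arrays 1 to 3 and 6.27 and 6.36 on control arrays 1 and 2. Its group means were 6.15 ± 0.25 (SD, n = 3) and 6.32 ± 0.06 (SD, n = 2), a difference of -0.17 (-0.60 to 0.26). Exposed array 2 was the highest of the 5 and the groups overlapped. Pex7, the receptor for the N-terminal signal, read 6.15, 6.17 and 6.35 against 6.35 and 6.47, a difference of -0.19 (-0.52 to 0.14). Exposed array 3 read above control array 1 by less than 0.01, so these groups overlapped as well. Pex13 and Pex14 encode the proteins at which loaded receptors dock on the membrane. Pex13 read 5.97, 6.14 and 6.32 against 6.23 and 6.22, with the exposed arrays on either side of the controls. Pex14 read 7.83, 7.56 and 7.85 against 7.57 and 7.45, the second highest difference of the peroxins at 0.24 (-0.12 to 0.60). Its exposed array 2 lay between the control arrays, while exposed arrays 1 and 3 lay above them.

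Recycling of the receptor needs a ubiquitin ligase and an ATPase that pulls Pex5 back out of the membrane. Pex2, a subunit of the ligase, read 5.82, 6.38 and 6.29 against 6.21 and 6.40, a difference of -0.14 with exposed array 1 0.39 below the next array. Pex10, another ligase subunit, read 4.17, 4.05 and 4.10 against 4.10 on both control arrays. Exposed array 3 and the control arrays held the same deposited value, so the control SD of 0 is not a measure of replicate error. Pex6, an ATPase subunit, read 5.79, 5.57 and 6.08 against 5.52 and 5.62, a difference of 0.24 (-0.19 to 0.68) with overlap at exposed array 2. Pex26, which anchors that ATPase at the membrane, read 4.23, 4.74 and 4.39 against 4.39 and 4.17, with exposed array 2 alone above both controls. Over these 8 import genes 4 were higher and 4 lower in mean, with a median difference of -0.04.

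Genes for inserting membrane proteins were close between the groups in mean. Pex19, the chaperone that carries new membrane proteins, read 8.72, 8.47 and 7.89 against 8.46 and 8.32. The difference was -0.03 (-0.64 to 0.58), and its range over the 5 arrays was 0.82, with exposed array 3 lowest and exposed array 1 highest. Pex3, its docking site, read 6.49, 6.97 and 6.99 against 6.70 and 6.95, a difference of -0.01 (-0.49 to 0.48). Pex16, which helps place Pex3, read 7.78, 7.71 and 7.83 against 7.72 and 7.91, a difference of -0.04 (-0.35 to 0.28). The division factor Pex11a, which elongates the membrane before fission, read 7.88, 8.24 and 8.06 against 7.91 and 8.22, with the control arrays nearly as far apart as the exposed ones and a difference of -0.01 (-0.42 to 0.41). Its relative Pex11g read 6.80, 6.60 and 6.67 against 6.57 and 6.62, a difference of 0.10 (-0.22 to 0.41). In all 13 peroxins, 5 were higher and 8 lower in mean, the median difference was -0.0083, and the groups did not overlap for 0 of 13, against 17.3% of all probe sets.

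**Figure D2:**
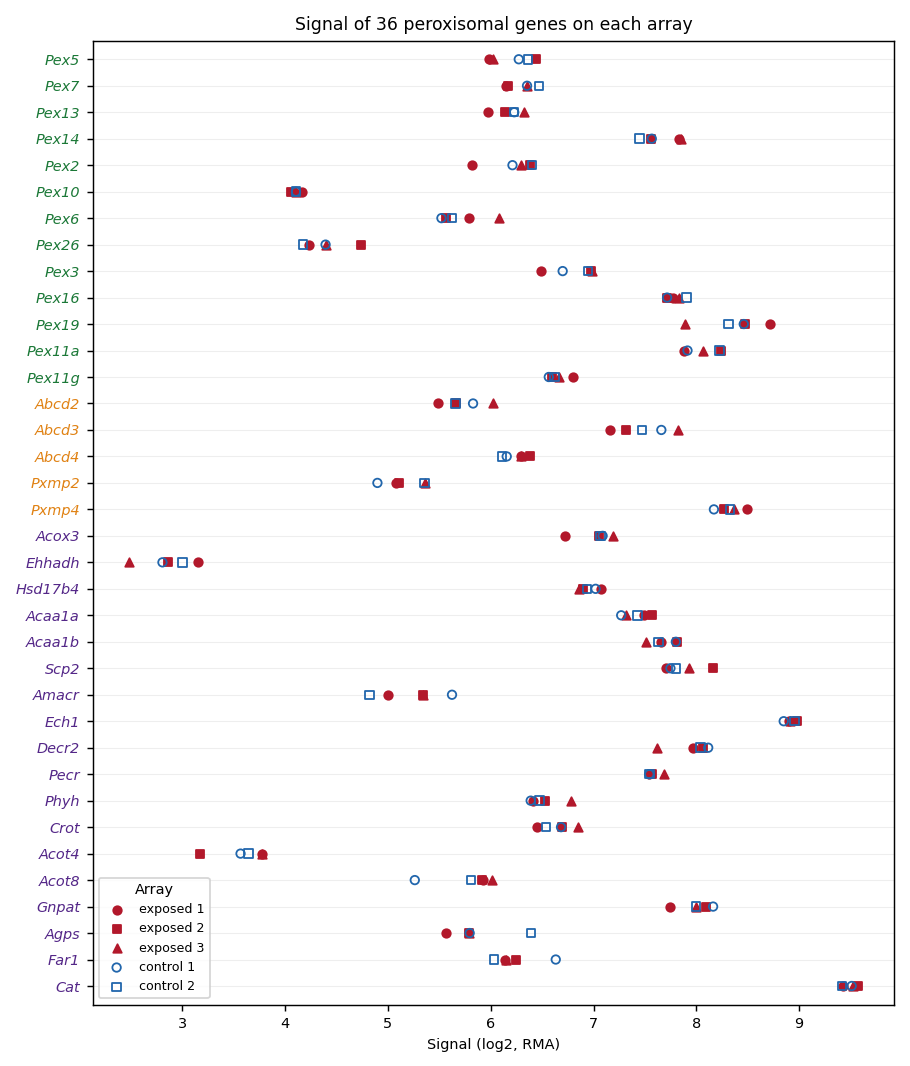
Signal (log2, RMA, horizontal axis) of each of the 36 genes on the 3 exposed arrays (filled) and 2 control arrays (open), with gene names coloured as peroxin (green), transporter or membrane protein (orange) and enzyme (purple). The groups overlap for 33 genes. The exceptions are Abcd4, Acot8 and Agps, 8.33% of the 36 against 17.3% of all probe sets.

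Of the 3 ABC transporter genes, 1 (33.3%) separated the groups, by a small step, against 17.3% of all probe sets. Abcd4 read 6.30, 6.39 and 6.30 on exposed arrays and 6.16 and 6.11 on control arrays, with every exposed array at least 0.14 above both controls. The means were 6.33 ± 0.05 (SD, n = 3) and 6.13 ± 0.03 (SD, n = 2), a difference of 0.19 (-0.10 to 0.48; limma adjusted p 0.93). That difference was 4.2 times the pooled SD, the highest such ratio of the 36. Its replicate spread ranked low, at the 3.79 percentile of all probe sets, and exposed arrays 1 and 3 held exactly the same deposited value. Limma, which draws small spreads towards the common one, gave no unadjusted p under 0.05, whereas the fit without moderation gave 0.019. In human cells the ABCD4 protein acts at the lysosome in the release of vitamin B12, so the gene is listed with the peroxisomal transporters by family.

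The peroxisomal fatty acid transporters proper varied among the exposed arrays. Abcd3, the most abundant protein of the peroxisomal membrane in liver and an importer of branched and dicarboxylic acyl groups, read 7.17, 7.31 and 7.83 against 7.66 and 7.47. Both control arrays lay between exposed arrays 2 and 3, and the difference was -0.13 (-0.67 to 0.40). Abcd2, which imports very long-chain acyl groups and is expressed in fat tissue, read 5.48, 5.66 and 6.02 against 5.83 and 5.66, a difference of -0.02 (-0.48 to 0.44). In both genes exposed array 1 was the lowest and exposed array 3 the highest of the 5. Pxmp2, a channel for small solutes, read 5.08, 5.10 and 5.36 against 4.90 and 5.36, where the gap of 0.46 between the control arrays exceeded the difference of 0.05. Pxmp4 read 8.49, 8.27 and 8.37 against 8.17 and 8.33, a difference of 0.13 (-0.21 to 0.46) with overlap at exposed array 2. Of these 5 transporter and membrane protein genes 3 were higher and 2 lower in mean, and the median difference was 0.05.

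The enzymes of peroxisomal beta-oxidation, the pathway that removes acetyl or propionyl units from long and branched fatty acids, had 5 genes higher and 5 lower in mean, with a median difference of -0.016. For 0 of these 10 genes did the groups separate, against 17.3% of all probe sets. Acox3, an oxidase of branched acyl-CoA, read 6.72, 7.06 and 7.19 against 7.09 and 7.07, with exposed array 1 alone below the rest by 0.34. The 2 bifunctional enzymes carry out the hydration and dehydrogenation that follow. Ehhadh, the one induced by PPARα in rodent liver, had a low signal of 3.15, 2.86 and 2.48 against 2.81 and 3.00 and a difference of -0.07 (-0.60 to 0.45). Hsd17b4, the one needed for very long and branched substrates, read 7.07, 6.90 and 6.86 against 7.02 and 6.94, a difference of -0.04 (-0.36 to 0.29).

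The thiolase genes Acaa1a and Acaa1b are close copies that encode the last step for straight chains, and probes of one may also bind RNA of the other. Acaa1a read 7.49, 7.56 and 7.32 against 7.27 and 7.43, a difference of 0.11 (-0.23 to 0.45). Acaa1b read 7.66, 7.81 and 7.51 against 7.80 and 7.63, a difference of -0.06 (-0.41 to 0.30). The signs differ, but both intervals span 0 and the difference between the copies was not tested. Scp2, which encodes a thiolase for branched chains and a lipid carrier, had the second highest difference of the enzymes: 7.71, 8.16 and 7.92 against 7.75 and 7.80, or 0.16 (-0.25 to 0.56). Exposed array 1 was below both controls. Amacr, the racemase that prepares branched chains for oxidation, read 5.00, 5.34 and 5.34 against 5.62 and 4.82. The control arrays were the highest and the lowest of the 5, 0.80 apart, while the means differed by 0.0032.

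Decr2 and Ech1 are auxiliary enzymes that let unsaturated chains pass through the pathway, and Pecr is listed with them. Decr2, a dienoyl-CoA reductase, read 7.97, 8.06 and 7.62 against 8.12 and 8.04, the second lowest difference of the enzymes at -0.19 (-0.60 to 0.22). Exposed array 3 lay 0.35 below the next array. Ech1, a dienoyl-CoA isomerase, read 8.90, 8.98 and 8.92 against 8.85 and 8.95, and Pecr, an enoyl-CoA reductase, read 7.54, 7.57 and 7.69 against 7.54 on both control arrays, which held the same deposited value. These 2 genes were among the least variable, with ranges over the 5 arrays of 0.13 and 0.15. Phyh, the hydroxylase that starts alpha-oxidation of phytanic acid, read 6.41, 6.53 and 6.78 against 6.39 and 6.47, a difference of 0.14 (-0.23 to 0.52) in which exposed array 3 stood 0.25 above the next array.

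Acot8 had the largest difference of the 36, and its size depended on 1 control array. It encodes a thioesterase that frees acyl groups from CoA at the end of the pathway. Signals were 5.93, 5.91 and 6.01 on exposed arrays 1 to 3 and 5.26 and 5.81 on control arrays 1 and 2. The exposed arrays lay within 0.10 of each other and above both controls, the nearer control by 0.10. The means were 5.95 ± 0.05 (SD, n = 3) and 5.53 ± 0.39 (SD, n = 2), a difference of 0.41 (-0.04 to 0.87; limma adjusted p 0.93). Without control array 1 the difference was 0.14, and without control array 2 it was 0.69. Acot4, a thioesterase that releases dicarboxylic acids in the mouse, had a low signal of 3.77, 3.17 and 3.77 against 3.57 and 3.64, a difference of -0.03 (-0.56 to 0.49). Crot, which hands shortened chains to carnitine for export to mitochondria, read 6.45, 6.70 and 6.85 against 6.68 and 6.54, a difference of 0.06 (-0.33 to 0.45). The groups of both genes overlapped. Of the 3 genes for acyl release or transfer only Acot8 separated the groups (33.3%), against 17.3% of all probe sets.

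**Figure D3:**
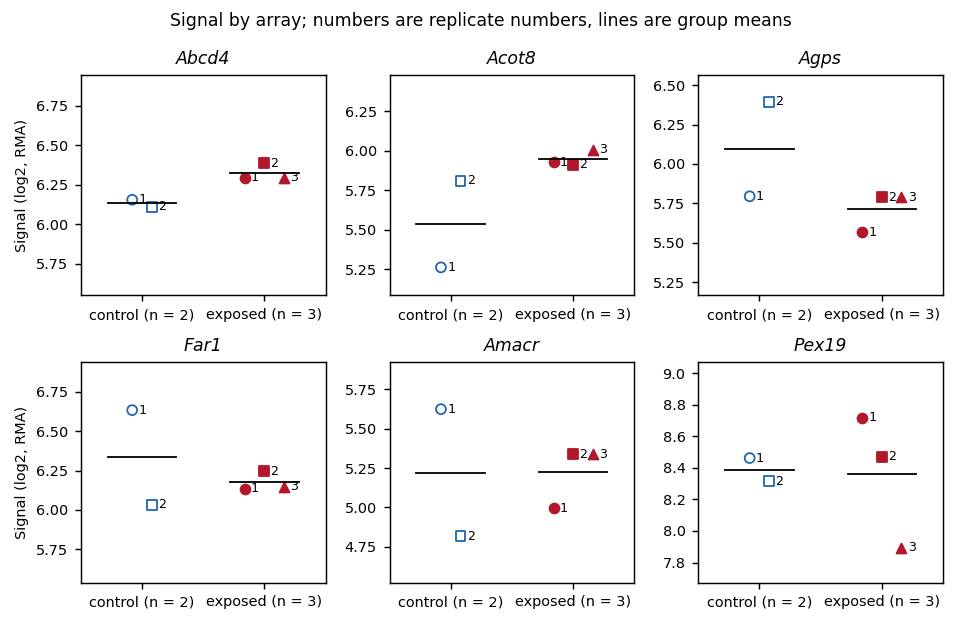
Signal (log2, RMA, vertical axis) of 6 genes on each control and exposed array, with replicate numbers beside the points and group means as lines; all panels span the same range of log2 units. The top row holds the 3 genes whose groups do not overlap. There, control array 1 lies 0.55 below the next array for Acot8, and control array 2 lies 0.60 above the next for Agps. The bottom row holds 3 genes with wide ranges, named after their values were seen.

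All 3 genes classed here under ether lipid synthesis had a lower mean on exposed arrays, with a median difference of -0.16, and none passed the test. The path begins in the peroxisome with Gnpat and Agps and uses fatty alcohol made by Far1. Gnpat, the acyltransferase of the opening step, read 7.743, 8.092 and 7.999 against 8.164 and 7.999, a difference of -0.14 (-0.51 to 0.24), and its exposed array 3 and control array 2 held the same deposited value. Agps, which swaps the acyl group for an alkyl group, read 5.57, 5.79 and 5.79 against 5.79 and 6.39. Its means were 5.72 ± 0.13 (SD, n = 3) and 6.09 ± 0.42 (SD, n = 2), a difference of -0.38 (-0.88 to 0.12; limma adjusted p 0.93). The groups were separate by 0.0051 alone, since control array 1 lay beside exposed arrays 2 and 3. Without control array 2 the difference was -0.08, and without control array 1 it was -0.68. Far1, the reductase that makes the fatty alcohol, read 6.13, 6.25 and 6.15 against 6.63 and 6.03, so the exposed arrays lay between the controls. Its difference of -0.16 was 0.14 without control array 1 and -0.46 without control array 2. The high control array was thus control array 2 for Agps and control array 1 for Far1 and Gnpat. Far2 and Dhrs7b, also tied to this path, stood in the list of other peroxisomal genes and were named after their values were seen. Far2 was higher in mean on exposed arrays at a low signal, by 0.25 (-0.63 to 1.13), and Dhrs7b differed by -0.014 (-0.41 to 0.38). The groups of both genes overlapped, and a lower mean was not shared by every measured gene of this path.

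Cat, the catalase gene that disposes of peroxide from the oxidases, read 9.43, 9.57 and 9.53 on exposed arrays and 9.51 and 9.42 on control arrays. The means were 9.51 ± 0.07 (SD, n = 3) and 9.47 ± 0.07 (SD, n = 2), a difference of 0.04 (-0.26 to 0.35), and all 5 arrays fell within 0.15. Cat and Acot4, the genes whose windows held the direct repeat printed above, differed by 0.04 and -0.03, both inside the replicate spread. Over the 18 enzymes 9 were higher and 9 lower in mean, with a median difference of -0.015.

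Spread between arrays was as wide as the differences for most of the 36. The absolute difference exceeded the pooled within-group SD for 9 of 36 genes (25%), against 37.5% of all probe sets. The median pooled SD was 0.19 for the 36 and 0.19 over all probe sets, and the median absolute difference was 0.092 against 0.13. Ranges over the 5 arrays had a median of 0.44, exceeded 0.5 for 12 genes and reached a 2-fold change (1 on the log2 scale) for 0. Between pairs of arrays of the same group the median absolute difference over the 36 genes lay between 0.15 and 0.21 (4 pairs), and between pairs of different groups between 0.11 and 0.23 (6 pairs). The widest of all was exposed array 1 with control array 1, and the narrowest exposed array 2 with control array 2. An identical value on at least 2 arrays was found for 6 of 36 genes (16.7%), against 27.2% of all probe sets. Its part in the spread was not tested.

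Exposed array 1 held the lowest value for 14 of the 36 genes and exposed array 3 the highest for 12. The same counts were not made over all probe sets, so they cannot be called particular to these genes. The median deviation of the 13 peroxins from their own 5-array means was -0.15 on exposed array 1, against -0.036 and 0.044 on exposed arrays 2 and 3 and -0.0087 and 0.047 on control arrays 1 and 2. For the 5 transporter and membrane protein genes it was 0.20 on exposed array 3 and between -0.094 and -0.016 on the other 4. For the 18 enzymes the 5 arrays lay between -0.05 and 0.057, with exposed array 1 lowest and exposed array 2 highest. Over all probe sets the same deviations lay between -0.0078 and 0.004. The groups overlapped in each class.

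**Figure D4:**
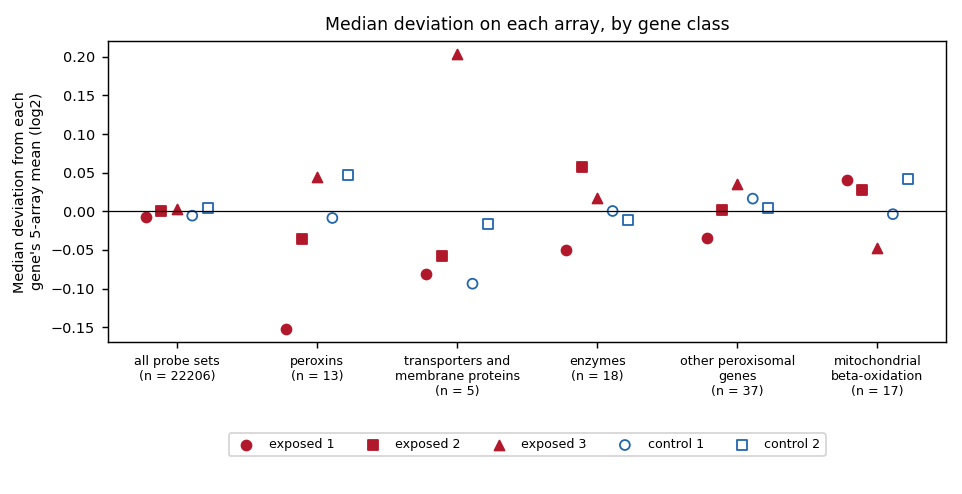
Median over genes of the deviation from each gene's 5-array mean (log2, vertical axis) on each array, for all probe sets, the 3 classes and 2 comparison lists. Exposed array 1 is lowest for the peroxins (-0.15) and exposed array 3 highest for the transporters and membrane proteins (0.20), and both control arrays lie within the range of the exposed arrays for the enzymes, while control array 2 is highest for the peroxins and control array 1 lowest for the transporters and membrane proteins.

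Other genes around the organelle gave no call either. Of 45 further genes listed as peroxisomal, 37 were measured, 17 higher and 20 lower in mean with a median difference of -0.014, and 0 passed the test. The largest differences were those of the thioesterase genes Acot3, at 0.51 (-0.14 to 1.16), and Acot12, at -0.41 (-0.88 to 0.06). The Acot12 protein is described mainly as cytosolic, so its place in this list is loose. One gene had an unadjusted p under 0.05, 1 of 37 beside 3.49% of all probe sets: Hao2, an oxidase of hydroxy acids, named after its values were seen, at 0.40 (0.016 to 0.78) and a low signal with a mean of 2.78. In the 4 genes of the fission machinery that peroxisomes share with mitochondria, 0 passed; the GTPase gene Dnm1l differed by -0.18 and its membrane adaptor Fis1 by 0.13.

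The receptors and the mitochondrial counterpart were likewise without a call. Of 6 measured genes of PPAR receptors and coactivators 3 were higher and 3 lower in mean. Pparg read 11.05, 10.97 and 10.95 against 10.99 and 10.95, a difference of 0.02 (-0.27 to 0.31). Ppara, the receptor that drives peroxisomal genes in rodent liver, differed by 0.25 (-0.37 to 0.88) at a low signal, with exposed array 3 at 4.07 and the other 4 arrays between 3.24 and 3.41. The coactivator gene Ppargc1a differed by -0.03 (-0.54 to 0.48), and Rxrb, a partner of the PPARs, by -0.26 (-0.60 to 0.09). Mitochondrial beta-oxidation, which finishes chains that peroxisomes have shortened, had 9 genes higher and 8 lower of 17 measured, with a median difference of 0.0016 beside -0.016 for the 10 peroxisomal beta-oxidation genes; the difference between the lists was not tested. The largest there were Hadh, at -0.37 with exposed array 3 at 8.47 and the other arrays from 9.59 to 9.61, and Eci1, at 0.29.

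**Figure D5:**
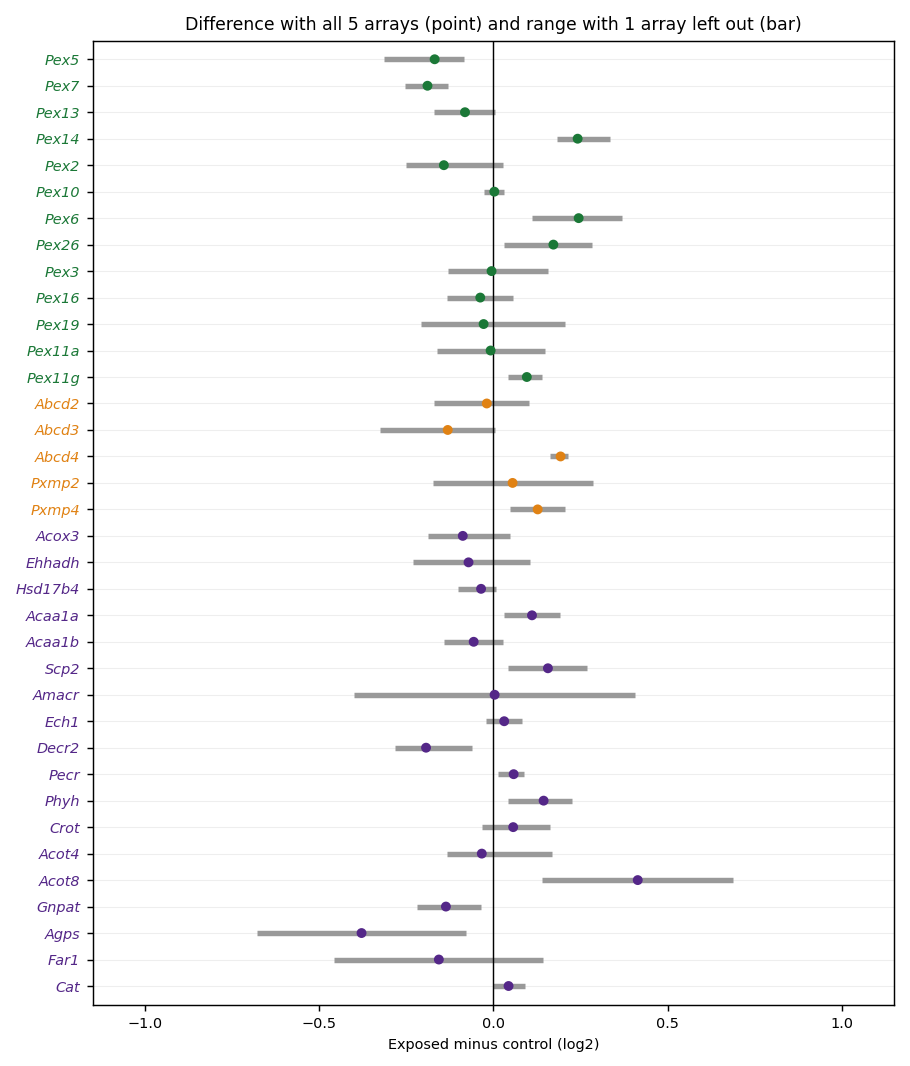
Difference in signal (log2, exposed minus control, horizontal axis) with all 5 arrays (point) and the range of the 5 differences obtained with 1 array left out (bar). The bars of 20 of the 36 genes cross 0, and the widest is that of Amacr, from -0.40 to 0.41.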

How the data were processed

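The 5 arrays are 3 exposed and 2 control samples of 1 experiment. The authors deposited log2 values, 1 per probe set and array. The submitters' processing notes name RMA (background correction, quantile normalization and probe summary) and Partek; their versions and the build behind the array annotation are not given in the sources used here. Values ran from 1.20 to 13.2 and array medians from 4.80 to 4.88. RMA compresses differences between dim signals, which touches Pex10, Pex26, Ehhadh and Acot4, whose mean lay below the median probe set (4.81). Symbols came from the platform annotation (19572 probe sets with 1 symbol, 0 with several, 2634 with none).

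The two-sided test was that of limma 3.58.1 (R 4.3.3; lmFit and eBayes with a single group term, nothing filtered out) on all 22206 probe sets, with 3 residual and 3.17 prior degrees of freedom. The script was tested on simulated data. Calls needed an adjusted p below 0.05. Values in parentheses after a difference are 95% intervals. A gene's probe set was the one with the highest mean. The number of arrays limits the precision.

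The 36 genes and the comparison lists were chosen with earlier results of these data known. All 36 are named; from other lists the 2 largest differences were named, with Pparg, Ppara and Ppargc1a. Outside that rule, Hao2, Far2, Dhrs7b, Tnfrsf17, Cd79a, Sdc1, Apoa1, Cyp2e1, Slc2a4, Fabp4, Cd34 and Fn1 were named after their values were seen. Array values of all 36 are printed, beyond the stated minimum. Lists were for other peroxisomal genes, shared fission genes, PPAR receptors and coactivators, mitochondrial beta-oxidation, and markers of adipocytes, preadipocytes and fibroblasts, macrophages, B and plasma cells, and hepatocytes. Protein targeting signals were planned and are not analysed here. Promoter windows are RefSeq's (GRCm38.p6).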

Additional observations from a re-analysis of the deposited data

How the results depend on the processing

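The count of called probe sets, all and among the 36 genes, was 0 under every adjusted alternative: no moderation, an intensity trend with a robust prior, array weights, median centring, a second quantile normalization, a floor at the median level (which keeps 32 of the 36 genes), a replicate block, each array left out and, for the genes, the mean of a gene's probe sets. At an unadjusted p under 0.05 the counts were 776 of all probe sets and 0 of the 36; the 776 became 362 under the floor, which tests fewer probe sets, and lay between 760 and 1378 when single arrays were dropped (1378 without control array 1). With 1 control array left, its spread is assumed to be that of the exposed arrays. The count of genes higher in mean (17) ran from 15 to 23. When single arrays were dropped, the median over the 36 ran from -0.002645 to 0.04637 and that over the enzymes from -0.01032 to 0.04637, both highest without exposed array 1; the cause was not tested. The peroxin median (-0.0083) ran from -0.080 without exposed array 2 (-0.0797 without control array 1) to 0.0568 without control array 2, and was 0.0282 without exposed array 1. The median of transporters and membrane proteins (0.055) ran from -0.0356 without exposed array 3 to 0.171 without control array 2, with 0.101 and 0.0938 without exposed arrays 1 and 2. These medians are near 0 and their sign is not stable: over the 36 it was also positive with array weights (0.0176) and the second quantile normalization (0.013). Of the 36 genes, 16 kept their sign under all alternatives and 20 did not. Without control array 1 the differences of Agps, Acot8 and Far1 were -0.68, 0.14 and 0.14. Without control array 2 they were -0.08, 0.69 and -0.46. Same-numbered arrays did not deviate together (r = -0.014 for number 1 and -0.032 for number 2 over all probe sets), so the numbers were not taken as pairs. The replicate block gave a median of -0.002645 over the 36 genes, -0.0089 for peroxins, -0.036 for transporters and membrane proteins and 0.00986 for enzymes, with 18 genes higher and 18 lower; 7 changed sign. It leaves 1 residual degree of freedom and exposed array 3 without a partner.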
